A study of Betula luminifera with 2 samples.

Results

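miR164 is a microRNA (miRNA) family of flowering plants, and its members in Betula luminifera, a birch grown for timber, are described here. Members were the entries of the small RNA table named miR164 or MIR164 with any prefix or suffix, leaving out entries predicted from hairpins alone, together with every degradome alignment listed for such an entry. This gave 5 of the 569 entries and 3 of the 108 alignments. The material was RNA of root, stem and leaf from tissue culture seedlings aged 2 months, all of the single clone G49#, pooled in equal amounts, so tissues could not be compared. It was read in 1 small RNA library and 1 degradome library, with no replicates of either. A degradome library holds 5′ ends of polyadenylated RNA, among them those that cleavage leaves.

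A plant miRNA is cut from a hairpin precursor by a Dicer-like enzyme, which leaves a duplex of the miRNA and the opposite arm with short 3′ overhangs. The miRNA guides an Argonaute protein to a nearly complementary site in a messenger RNA, which is then cut opposite bases 10 and 11 of the miRNA. In Arabidopsis, miR164 directs the cleavage of transcripts of NAC transcription factors, among them the CUP-SHAPED COTYLEDON genes that set organ boundaries and NAC1 of lateral root growth, and its loss alters leaf margins and floral organs. It also acts on the NAC gene ORE1 in leaf ageing.

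The listed members were 5 different mature sequences, shown because their arm, their seed and single bases carry what follows. Bases 2 to 8, the seed, are in capitals, and each sequence is written 5′ to 3′ with T for U as in the table.
gma-miR164a: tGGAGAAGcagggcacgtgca
osa-miR164e: tGGAGAAGcagggcacgtgag
mtr-miR164d_R-1: tGGAGAAGcagggcacatgc
gma-MIR164a-p3: cACGTGCTccccttctccaac
cpa-MIR164b-p3: cATGTGCCcgtcttccccatc

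The first 3 were listed for the 5′ arm of a hairpin, which for osa-miR164e was that of rice. They began with uracil and shared the seed GGAGAAG. No other sequence among the 505 of the table had that seed. The last pair came from the 3′ arm, began with cytosine and had a seed each, ACGTGCT and ATGTGCC, which were also found in no other listed sequence. Prefixes name the plant whose miRBase entry was matched (gma soybean, osa rice, mtr barrel medic, cpa papaya), not the source of the RNA. gma-miR164a and osa-miR164e were identical to sequences in miRBase, the public miRNA registry. mtr-miR164d_R-1 was 1 base shorter at its 3′ end than its miRBase match. Both 3′ arm sequences were marked in the table as new, its mark for a sequence that miRBase does not report. Each nevertheless lay base for base in the miRBase precursor listed for it, gma-MIR164a of soybean and cpa-MIR164b of papaya.

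The 5 sequences had 427 reads in all, and nearly all of them were 1 sequence. gma-miR164a had 409 reads, which was 95.8% of the family (exact Clopper-Pearson interval at 95%, 93.4 to 97.5%). osa-miR164e had 7 reads, or 1.64% of the family (0.662 to 3.35%). mtr-miR164d_R-1 had 3 reads, or 0.703% (0.145 to 2.04%). On the 3′ arm, cpa-MIR164b-p3 had 7 reads, or 1.64%, and gma-MIR164a-p3 had 1 read, or 0.234% (0.00593 to 1.30%). The 3′ arm thus held 8 reads against 419 for the 5′ arm, 1.87% of the family (0.812 to 3.66%). These intervals cover counting error only, since reads were amplified by PCR and carry no molecular identifiers. In pooled tissue, fewer cells with a miRNA and less of it per cell cannot be told apart.

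**Figure D1:**
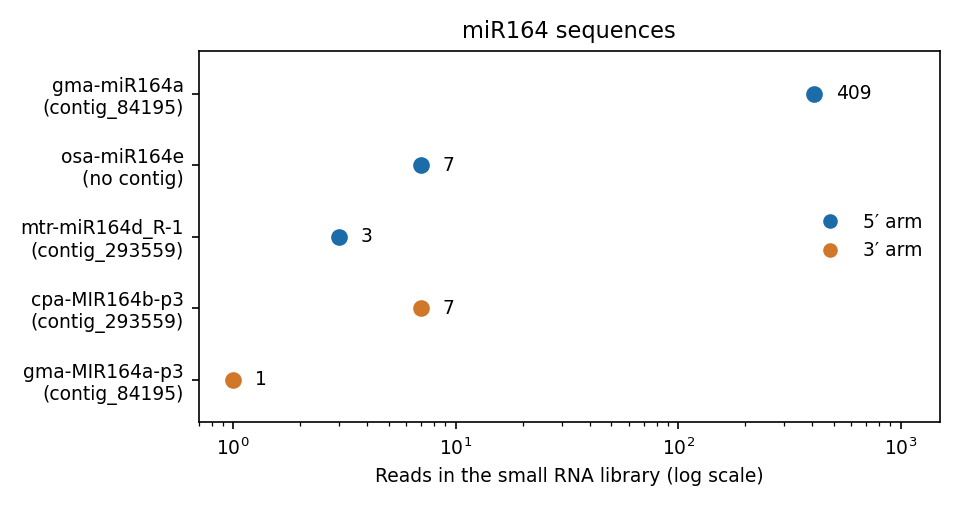
Reads of each miR164 sequence in the small RNA library, on a logarithmic axis, with 5′ arm sequences above and 3′ arm sequences below and the contig of each precursor under its name. gma-miR164a stands at 409 reads and the other sequences at 7 or fewer.

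The minor 5′ arm sequences differed from the main one at a few bases near the 3′ end, counted from 1 at the 5′ end of the miRNA. osa-miR164e differed from gma-miR164a by C20A and A21G. mtr-miR164d_R-1 differed by G17A and ended after base 20. No sequence outside the family lay within 2 mismatches of gma-miR164a, so no reads of a close relative under another name were found in the table. The 7 reads of osa-miR164e were placed on no contig of the birch genome, and the precursor listed for it was that of rice.

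The other 4 sequences were placed on 2 hairpins, printed from the table with the arms the authors marked in capitals, because their arms show which reads can be assigned to which hairpin. The sources used here do not give the build of the contigs, and no gene annotation of them was used.
contig_84195, minus strand, positions 1397 to 1506: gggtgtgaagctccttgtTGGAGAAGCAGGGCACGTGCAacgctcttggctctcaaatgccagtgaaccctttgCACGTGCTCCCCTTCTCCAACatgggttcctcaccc
contig_293559, minus strand, positions 1 to 147: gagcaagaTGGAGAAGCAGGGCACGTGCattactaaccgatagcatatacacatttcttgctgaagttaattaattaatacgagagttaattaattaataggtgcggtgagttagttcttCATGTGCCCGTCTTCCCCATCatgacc

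The first hairpin was 110 nt long with 57.3% GC, and 35 nt separated its arms. Its folding energy in the table was -59.4 kcal/mol, and its minimal folding energy index, the energy per length and GC content, was 0.9. The second hairpin was 147 nt long, or 141 nt without its unpaired ends, with 40.8% GC and 92 nt between the arms. Its energy was -52.8 kcal/mol and its index also 0.9. It reached position 1 of its contig, so the contig ends at the hairpin. In the structures of the table, 17 bases of the 5′ arm were paired with the 3′ arm on contig_84195 and 16 on contig_293559. With a 5′ arm of 21 nt, both duplexes had a 3′ overhang of 2 nt at each end, the length that Dicer-like enzymes leave. Overhangs were counted by position, and whether those bases pair in the hairpin was not analysed. With the 20 nt arm that the authors marked on contig_293559, the overhang of the 5′ arm was 1 nt.

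The hairpins, of 110 and 147 nt, were aligned globally over their whole length. In that alignment 74 bases were identical, 44.6% of the columns with gaps counted, so the difference in length lowers the share. The 21 bases that begin at the 5′ arm were the same in both, since on contig_293559 the base after the marked 20 nt completes the sequence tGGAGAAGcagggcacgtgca. The 409 reads of gma-miR164a, listed for contig_84195 alone, therefore match both hairpins without a mismatch and cannot be assigned to either. Such an overlap was not particular to miR164. Among the 72 matched sequences placed on contigs, 13 sequences of 6 families, gma-miR164a of miR164 included, also lay in a precursor for which they were not listed.

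The 3′ arms do tell the hairpins apart, since they were identical at 15 of 21 bases and differed by C3T, T8C, C10G, C11T, T16C and A20T. Counted by these reads, contig_293559 had 7 and contig_84195 had 1, so that 87.5% came from contig_293559, with a wide interval (47.3 to 99.7%) that includes equal shares. As listed, the 3′ arm held 7 of the 10 reads of contig_293559 (70%, 34.8 to 93.3%) and 1 of the 410 reads of contig_84195 (0.244%, 0.00617 to 1.35%). These arm shares depend on where the 409 reads are counted and are given as listed.

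The 5′ sequence listed for contig_293559 was not the one that the contig holds. mtr-miR164d_R-1 differed from the 5′ arm of that contig by G17A, the contig's base given first. Its 3 reads thus matched neither birch hairpin exactly, whereas cpa-MIR164b-p3 and gma-MIR164a-p3 each matched their own. Among the 86 matched entries placed on a contig, 21 were likewise absent from the precursor listed for them. Where those 3 reads came from was not tested.

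The hairpins were also set against the miRBase precursors listed for them. The hairpin of contig_84195 had 90 identical bases in 110 alignment columns with gma-MIR164a of soybean (81.8%), and 85 of 113 (75.2%) with gma-MIR164e of soybean. Both soybean precursors are 95 nt long. That of contig_293559 had 88 of 148 (59.5%) with cpa-MIR164b of papaya, which is 97 nt long, and 62 of 147 (42.2%) with mtr-MIR164d, of 72 nt. Gaps were counted as columns, so differences in length alone lower these shares, most for contig_293559. The table counted 5 miRBase precursors for contig_84195 and 18 for contig_293559.

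Among the 29 conserved families ranked here, with near-identical family names merged, miR164 was number 12 by reads, and it was number 15 of all 84 matched families. Its 427 reads were 0.0703% of the 607592 listed reads (0.0638 to 0.0773%). The miR166 family held 85.6% of that total, and with the most abundant sequence of the table, a miR166 sequence, left out of it the miR164 share was 0.454%. The family just above it, miR397, which targets laccases, had 846 reads (0.139%, 0.130 to 0.149%), outside that interval. The family just below, miR162, which targets the Dicer-like gene DCL1, had 373 reads (0.0614%, 0.0553 to 0.0680%), and its interval overlapped that of miR164. Counted as a single sequence, gma-miR164a was number 26 of the 505 sequences of the table, above 94.9% of them.

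**Figure D2:**
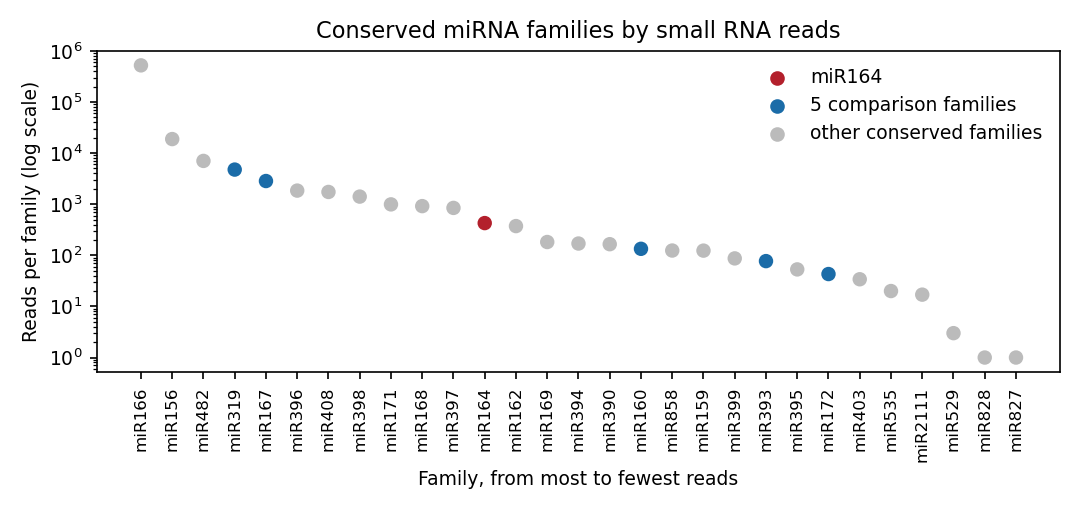
Small RNA reads per conserved family on a logarithmic axis, ordered from most to fewest reads, with miR164 in red and the 5 families it is compared with in blue. miR164 has 427 reads, between miR397 with 846 and miR162 with 373.

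miR164 was set beside 5 families chosen as examples of developmental regulators, and other families that regulate transcription factors were left out of this comparison. miR319, which targets TCP factors of leaf growth, had 4754.5 reads, 11.1 times the miR164 number. miR167, which targets auxin response factors, had 2839.5 reads, 6.65 times. miR160, which targets other auxin response factors, had 134 reads, or 0.314 times. miR393, which targets auxin receptors, had 77 reads, and miR172, which targets AP2 genes, had 43. The intervals of these shares of the library did not overlap that of miR164. The main sequence took 95.8% of the miR164 reads, against 99.6% for miR319 (99.4 to 99.7%), 90.3% for miR160 (84.0 to 94.7%), 86.0% for miR172 (72.1 to 94.7%), 79.0% for miR167 (77.4 to 80.4%) and 63.6% for miR393 (51.9 to 74.3%). By their intervals, miR164 lay below miR319 and above miR167 and miR393 in this share, while miR160 and miR172 overlapped it.

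The degradome table listed 1 transcript for miR164, the assembled contig Unigene9399 of 649 nt. It was listed for all 3 sequences of the 5′ arm and for neither of the 3′ arm, and no other miRNA was listed for it. The transcript carries no gene name in the table, so whether it encodes a NAC factor was not analysed here. The site, shown because it is where the sequences above pair, is written 5′ to 3′ with the base at the cleavage position in capitals.
Unigene9399, positions 590 to 610: agcaagugcccUgcuucucca

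The cleavage position was 601, which lies opposite base 10 of the miRNA, and so the cut fell between bases 10 and 11. The site ended 39 nt before the end of the assembled transcript, and whether it is in coding sequence was not analysed here. gma-miR164a paired with 19 of the 21 bases of the site and was unpaired at its positions 17 and 21. osa-miR164e paired with 18 of 21 and was unpaired at 17, 20 and 21. mtr-miR164d_R-1, which covers 20 bases of the site, paired with 19 of them and was unpaired at 17 alone. None of the 3 alignments held a G-U pair. Bases 1 to 16 were fully paired in each, the seed and the cleavage bases included.

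Position 17, where mtr-miR164d_R-1 differs from the main sequence by G17A, was unpaired with either base. The bases by which osa-miR164e differs, 20 and 21, were both unpaired, against base 21 alone in gma-miR164a. In the authors' deposited table the score was 2 for gma-miR164a, 3 for osa-miR164e and 1 for mtr-miR164d_R-1, equal to the number of unpaired bases. The p-values of the authors' deposited table ran the other way, 0.00509 for gma-miR164a, 0.00417 for osa-miR164e and 0.00601 for mtr-miR164d_R-1. All 3 alignments rest on the same reads at the same position and are not separate signals.

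Degradome reads on Unigene9399 were highest at the miR164 cut. There were 124 reads with 5′ ends at 17 positions. By the columns as read here, which have no header, each of them matched that transcript alone. Position 601 had 27 reads, 21.8% of the reads on the transcript (14.9 to 30.1%), which was 2.25 times the number at the next highest positions. These were positions 439, 442 and 462, with 12 reads each. The 16 positions other than the cut had a median of 4.5 reads and held 97 reads in all.

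The reads away from the cut all lay upstream of it. Position 23, near the start of the transcript, had 11 reads, and position 227 had 1. A stretch from 326 to 531 held 14 positions and 85 reads. Its first part had 4 reads at 326, 7 at 332, 8 at 350, 4 at 383, 2 between that position and the next, 9 at 400 and 4 at 425. After the 3 positions with 12 reads came 5 reads at 476, 2 at 523, 1 at 528 and 3 at 531. The nearest position to the cut was thus 70 nt away, and no read began elsewhere within the site or in the 48 nt between the cut and the end of the transcript. With so little assembled sequence after the cut, the lack of reads there cannot be taken as a feature of the profile.

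**Figure D3:**
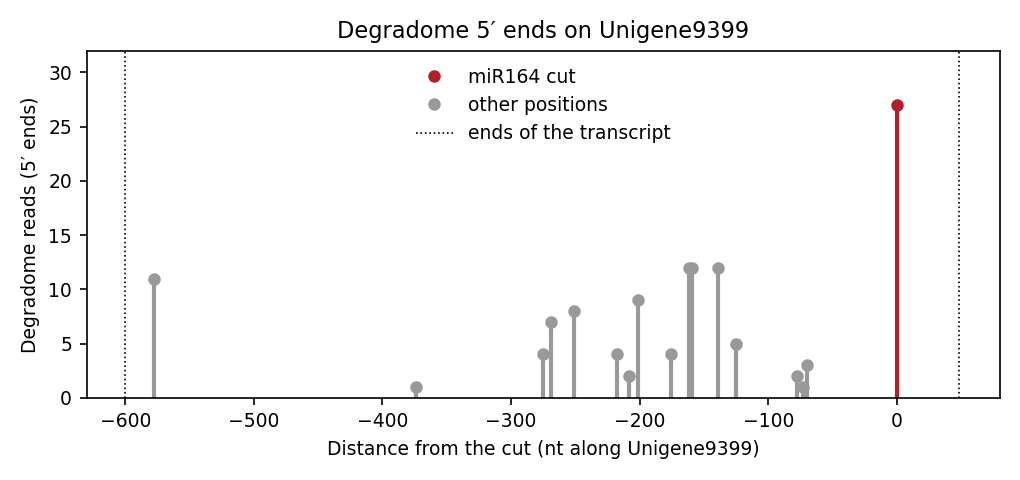
Degradome reads whose 5′ end lies at each position of Unigene9399, by distance from the miR164 cut in nt, with dotted lines at the ends of the transcript. The cut has 27 reads, and the 16 other positions, all upstream, have 1 to 12.

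In the authors' deposited table the cut was of category 0, and on this transcript it was the only position of that category. Every listed position of category 0 had more reads than any other position of its transcript. The category therefore adds nothing to the result that reads were highest at the cut. The 8 positions of category 2 had 5 to 12 reads, the 6 of category 3 had 2 to 4, and both of category 4 had 1 read. How the categories were defined is not stated in the table. Over the whole table, 23 of the 69 listed positions (33.3%) were of category 0, and a single miR164 position is too few to set against that share.

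The miR164 cut was among the weaker of those 23 positions. It was number 21 by reads, where the median was 81 and the range 13 to 1819. It was number 17 by share of its transcript's reads, where the median was 41.4%. It was also the cut closest to the end of its assembled transcript, number 23 by the length that followed, at 48 nt. The transcript had 124 reads against a median of 450, number 15 of 23.

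Beside the cut with the most reads of each comparison family with a listed target, the share at the miR164 cut was intermediate. The other listed cuts of miR319, miR172 and miR393 all held smaller shares than the miR164 cut. They ran from 0.0627% (miR319, Unigene1) to 9.64% (miR393, CL986.Contig1), so the place of miR164 depends on this choice. The miR160 position with the most reads had 17 of 70 reads on Unigene8556 (24.3%, 14.8 to 36.0%), and the miR319 position had 84 of 517 on CL6050.Contig2 (16.2%, 13.2 to 19.7%), and both intervals overlapped that of miR164 (14.9 to 30.1%). So did that of miR172, with 63 of 498 reads on CL831.Contig13 (12.7%, 9.86 to 15.9%). miR393 had 356 of 712 reads on Unigene7232 (50%, 46.3 to 53.7%), above the interval of miR164. Its other category 0 cut in the authors' deposited table, on CL986.Contig1, held 9.64% of 1702 reads (8.27 to 11.1%), below the interval of miR164. Thus miR164 lay between the category 0 cuts of miR393. The miR393 cut of category 3, on CL4910.Contig1, held 0.0954% of 7338 reads. miR167, with 2839.5 small RNA reads, had no listed target. These positions were compared within 1 library, on transcripts of different length and depth, and no test between them was made.

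**Figure D4:**
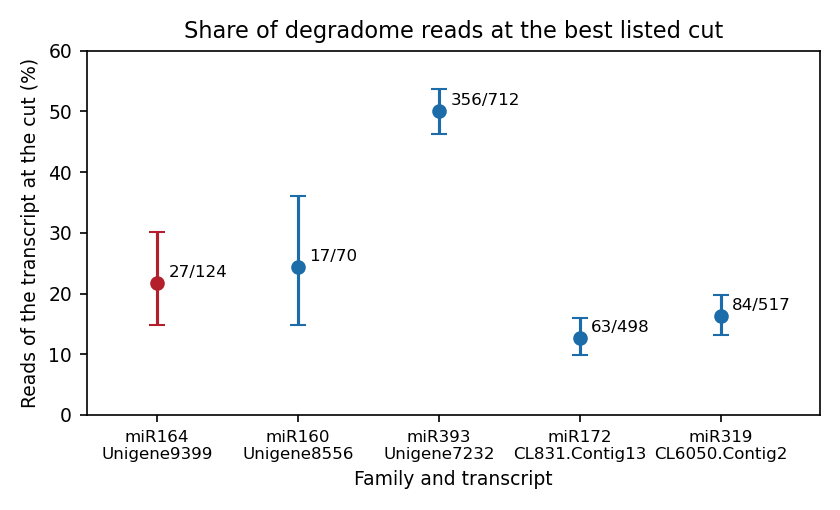
Percent of a transcript's degradome reads that lie at the listed cut with the most reads, for miR164 (red) and the comparison families with a listed target (blue), with exact binomial intervals at 95% and the reads at the cut over those on the transcript. miR164 stands at 21.8%, beside miR160 at 24.3% and miR393 at 50%, whose other category 0 cut, not drawn, was at 9.64%.

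miR164 had 1 listed target transcript, as did 7 of the 18 conserved families with a target, itself included. miR160 had 1, miR319 had 2, miR393 had 3 and miR172 had 5. Counting category 0 in the authors' deposited table alone, miR164, miR160, miR319 and miR172 had 1 each and miR393 had 2. NAC transcripts were not looked for here, because the degradome table gives no gene names.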

How the data were processed

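Per the labels' protocols, pooled Trizol-extracted RNA went into a TruSeq small RNA library, and poly(A) RNA primed with biotinylated random primers into a degradome library. Per the file headers, the small RNA values are raw read numbers without normalization. Of the 569 entries, 115 were not whole numbers, so the deposited values were taken to be estimated counts, and how the fractions arose was not tested. All miR164 values were whole. The sources used here do not give the aligner, the degradome caller or the genome build. Degradome reads are counts of 5′ ends at a position, and their columns, which have no header, were read from their values. Category, p-value and score are those of the authors' deposited table.

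The members and lists were chosen with earlier results of these data known. Named items were all members, their target and 5 comparison families. Family names were merged for miR156 with miR157, miR165 with miR166, miR170 with miR171, and miR482 with miR2118. Intervals are exact (Clopper-Pearson) at 95%, on values rounded to whole reads. Pairing and overhangs were counted from the deposited alignments and structures. Hairpins were aligned globally with Biopython 1.88 (match 1, mismatch -1, gap opening -2, extension -0.5) and refolded with RNAfold 2.7.2. Python 3.11.15, pandas 2.3.3, SciPy 1.17.1 and matplotlib 3.10.9 were used. With 1 library of each kind, no test between samples was made.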

Additional observations from a re-analysis of the deposited data

How the results depend on the processing

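Of 25 alternatives to 12 results, 23 kept the value within its counting interval or, for counts, ranks and folding indices, close to it, and 2 moved it. Several alternatives could not have changed the value, so these numbers do not measure robustness. As the columns were read here, each read on Unigene9399 matched it alone, and no other read began within 1 nt of the cut. No alignment held a G-U pair, and the cut on the 1 listed transcript was of category 0. With the most abundant sequence of the table left out of the total, the miR164 share of listed reads was 0.454%. With the sequences of one seed merged, the main miR164 sequence held 98.1% of the family. The family had 409 to 427 reads under every alternative tried. Divided reads, reads matching one place and a window of 1 nt on each side left 27 reads and 21.8% at the cut. Refolding gave folding indices of 0.973 for contig_84195 and 0.898 for contig_293559. No paired analysis was possible because there is 1 library of each kind. Sequences with under 10 reads, 4 of the 5 members, and the 124 reads on Unigene9399 limit how finely shares can be read.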
